A study of Mus musculus with 6 samples.

Results

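The genes described here encode the proteasome, its activators and the chaperones that assemble it. They were taken by name, as the genes of single-gene probesets whose annotated symbol begins with Psma to Psmg and a number. The rule found 50 of the 19939 genes named on the array. Each gene was represented by its brightest probeset, by the mean of the 6 arrays, and 48 of the 50 passed the filter on dim genes. The immunoproteasome gene Psmb8 and the testis alpha subunit gene Psma8 were dim and were not tested. Their levels ran from 5.22 to 5.38 and from 5.06 to 5.29 over the 6 arrays. By name the rule also took Psmc3ip, which encodes a meiotic recombination factor and no proteasome part, and Psme3ip1, whose product binds the activator encoded by Psme3.

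Whole-brain RNA came from C57BL/6J male pups, an inbred mouse strain, at postnatal day 7. Ethanol pups received 2 subcutaneous doses of 2.5 g/kg as a 20% solution in 0.15 M saline, 2 h apart, and saline pups received the 0.15 M saline alone. Brains were taken 4 h after the first injection, with ethanol pups matched to saline littermates. Each Affymetrix whole-transcript array held RNA pooled from 3 males of different litters, which leaves 2 ethanol arrays (2 and 4) and 4 saline arrays (1, 3, 5 and 6) from 18 mice. The pools come from separate animals, so p-values rest on the spread between pools, which the limma fit draws toward the spread typical of all genes. Littermates were matched across the groups, so the pools may not be independent. The number of arrays limits the precision.

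The proteasome degrades proteins that carry ubiquitin chains. Its 20S core is a barrel of alpha rings, which form the gate, around beta rings, which hold the cutting sites. The 19S cap binds the ubiquitin chain, unfolds the substrate with a ring of ATPases and removes the ubiquitin. In neurons the particle turns over synaptic and signalling proteins, and its genes are known to be induced together when its activity is blocked, through the transcription factor encoded by Nfe2l1.

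Saline array 3 stood apart from the other arrays, at 13.5 on a first principal component that held 40.9% of the variance, where the others lay between -7.49 and 2.95. Array medians over the 14954 tested genes ran from 8.29 on saline array 3 to 8.38. Of 35 tested markers of cell types and tissues, 0 passed the limma test, with 6 at an unadjusted p under 0.05, beside 12.3% of all tested genes. All 24 tested markers of neurons, astrocytes, oligodendrocytes, microglia and endothelium lay above the background guide of 6.20, the 95th percentile of olfactory and vomeronasal receptor genes, while 0 of the measured leukocyte, liver and testis markers did. Among the pituitary markers Gh and Cga lay above it on average and were lower with ethanol, by -1.52 ± 0.38 and -1.20 ± 0.21 (SE, limma adjusted p = 0.162 and 0.0631). Gh was at 7.65 and 5.72 on ethanol arrays 2 and 4 and between 7.70 and 8.52 on saline. The erythroid markers Alas2 and Slc4a1 also lay above the guide, at means of 8.59 and 6.94. Their changes were -0.23 ± 0.17 and -0.18 ± 0.10 (SE, limma adjusted p = 0.622 and 0.510), with overlapping groups. Whether pituitary tissue or erythroid cells in the pools had a part in the values below was not tested.

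No proteasome gene passed the test between ethanol and saline. The limma test, with Benjamini-Hochberg adjustment across the 14954 genes, called 0 of 48 members at a threshold of 0.05. It called 12 genes in all, or 0.0802% of those tested, 0.0602% higher and 0.0201% lower. The smallest adjusted p of a member was 0.184, for Psmb11, which passed the filter on dim genes only through the saline group. Among the members above the background guide it was 0.247, for Psmc4. At an unadjusted p under 0.05 there were 5 members, Psmc4, Psmd12, Psmd14, Psmd5 and Psmb11, all lower with ethanol. That is 10.4% of the members, against 12.3% of all tested genes (8.45% lower and 3.85% higher), a share near the background. Psmb11 was below the background guide on all 6 arrays, and without it and Psmg3, the other tested member below the guide, the count was 4 of 46, or 8.70%.

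Log2 changes, given as ethanol minus saline, ran from -0.29 to 0.08 over the members with a median of -0.05, beside -0.02 over all tested genes. Of the members 32 lay below 0 and 16 above, or 66.7% below beside 58.6% of all genes. For 26 members, or 54.2%, the change was smaller than the SD of the 4 saline arrays, beside 55.8% of all tested genes. The 95% interval of the change lay within a 1.5-fold change in either direction for all 48 tested members, and for 99.6% of all tested genes. The lowest bound was -0.46, for Psmb11, and the highest 0.28, for Psmg4. Over the 46 members above the background guide the changes ran from -0.18 to 0.08, with a lowest bound of -0.31. A whole-brain value cannot tell fewer cells of a type from less RNA per cell.

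**Figure D1:**
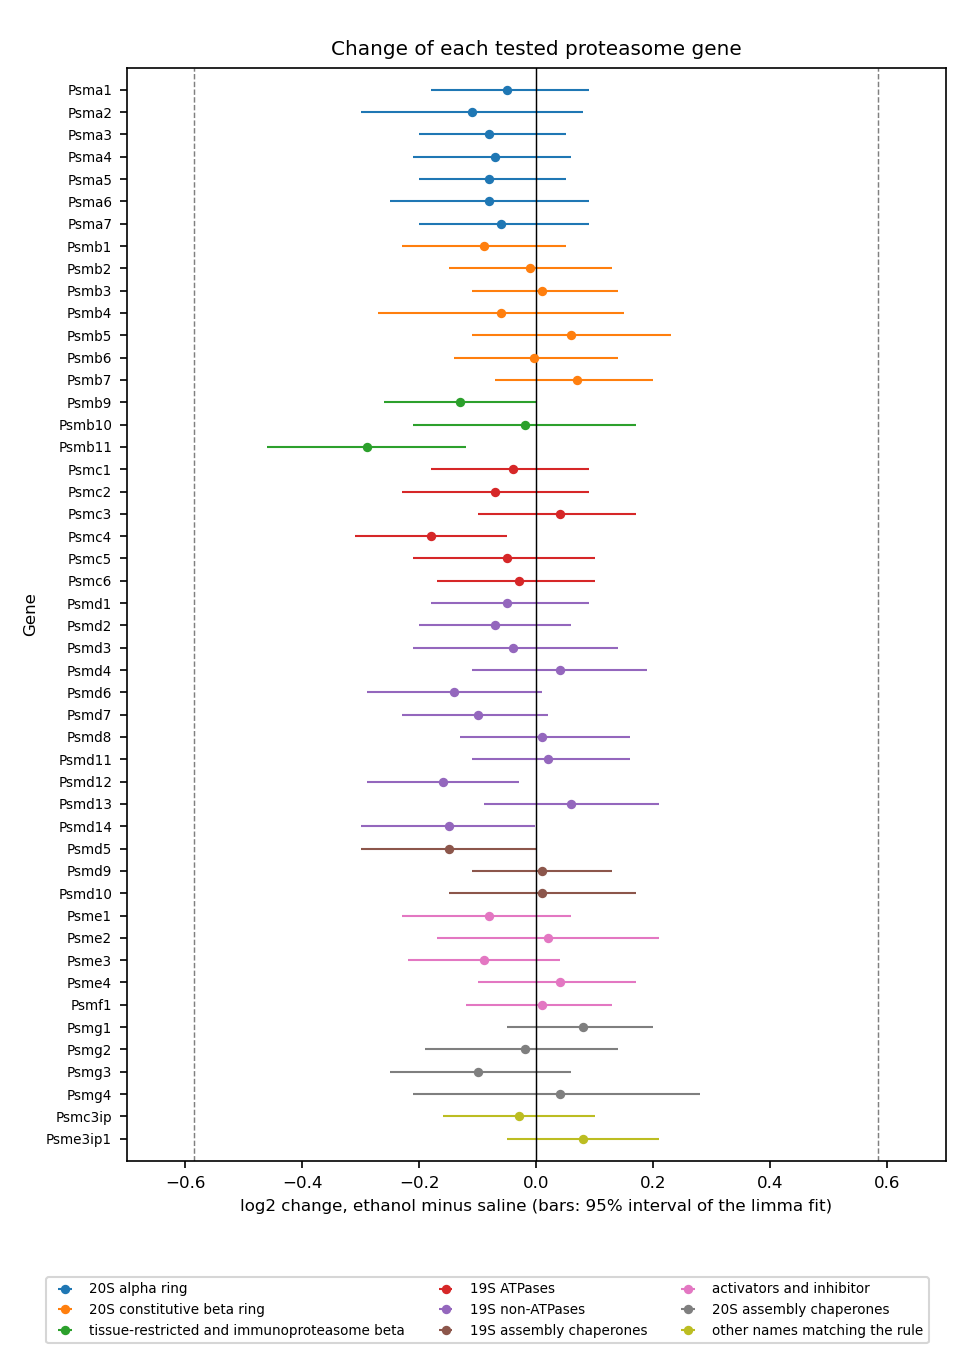
Log2 change of each of the 48 tested proteasome genes, ethanol minus saline, with its 95% interval from the limma fit over 2 ethanol and 4 saline arrays, coloured by role. The solid line marks 0 and the dashed lines a 1.5-fold change, and all 48 intervals lie between the dashed lines.

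**Figure D2:**
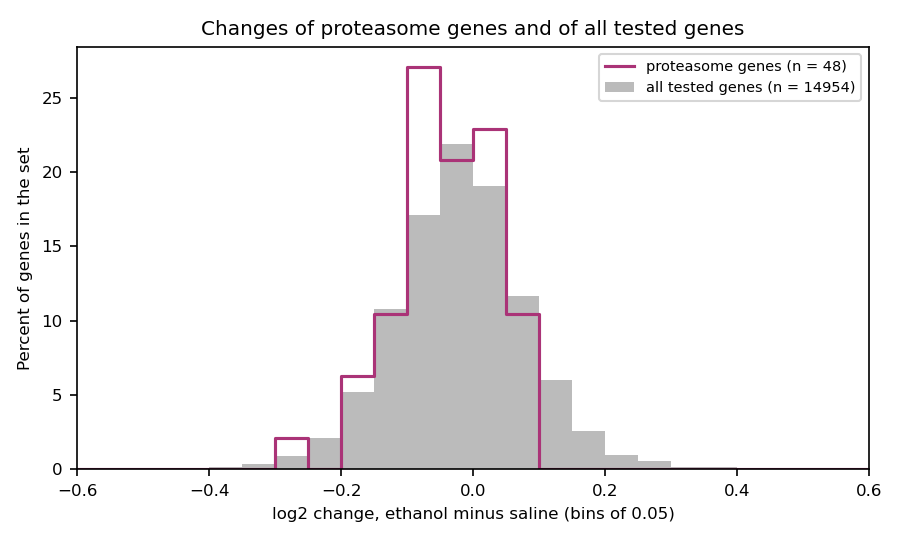
Percent of genes in each bin of log2 change (bins of 0.05) for the 48 proteasome genes (line) and all 14954 tested genes (bars). The members span -0.29 to 0.08, within the spread of all genes.

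The alpha ring genes Psma1 to Psma7 lay close together, with changes between -0.11 and -0.05 and a median of -0.08. All 7 changes were below 0, beside 58.6% of all tested genes. In limma 0 passed or had an unadjusted p under 0.05, beside 0.0802% and 12.3% of all tested genes. Psma3 stood at 11.15 and 11.14 on ethanol arrays 2 and 4, and at 11.20, 11.23, 11.28 and 11.19 on saline arrays 1, 3, 5 and 6. Both ethanol arrays were below every saline array, by a small margin, and the change was -0.08 ± 0.06 (SE, limma adjusted p = 0.624). The other probesets annotated to Psma3 gave -0.07 and -0.12.

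Psma5 was likewise lowest on the ethanol arrays, at 8.60 and 8.64 against 8.68, 8.71, 8.74 and 8.67 on saline, a change of -0.08 ± 0.06 (SE, limma adjusted p = 0.630). A second and dimmer probeset of Psma5 gave 0.05, the opposite sign. Psma2 differed between the ethanol arrays, with 9.19 on array 2 and 9.43 on array 4, and its saline values of 9.25, 9.52, 9.48 and 9.45 overlapped them. Its change was -0.11 ± 0.09 (SE, limma adjusted p = 0.634), and 0.01 without ethanol array 2. Without that array 5 of the 7 alpha changes were below 0, beside 55.5% of all tested genes. All 7 were below 0 with the arrays centred on their medians and after quantile normalization, beside 55.5% and 51.7% of all tested genes.

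The constitutive beta genes Psmb1 to Psmb7 lay on both sides of 0, with 4 below and 3 above, or 57.1% below beside 58.6% of all tested genes. Their median was -0.0035, which was 0.0035 with the arrays centred on their medians and 0.0040 after quantile normalization. The catalytic genes among them are Psmb6 (β1), Psmb7 (β2) and Psmb5 (β5). Psmb6 had 10.25 on both ethanol arrays, inside its saline values of 10.32, 10.15, 10.24 and 10.29. Psmb7 had 10.75 and 10.67 with ethanol and 10.68, 10.55, 10.64 and 10.69 with saline, a change of 0.07 ± 0.06 (SE, limma adjusted p = 0.714). Psmb5 had 11.82 and 12.03 with ethanol and 11.96, 11.76, 11.92 and 11.81 with saline, so that ethanol array 4 was above all saline arrays and ethanol array 2 was among them. Its change was 0.06 ± 0.08 (SE, limma adjusted p = 0.817), and -0.05 without ethanol array 4.

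Psmb1, a structural subunit of the beta ring, was the one constitutive beta gene with both ethanol arrays outside the saline range. It stood at 10.12 on both ethanol arrays and at 10.17, 10.13, 10.30 and 10.21 on saline, a change of -0.09 ± 0.06 (SE, limma adjusted p = 0.621). Psmb3 had the steadiest saline values of any member, 12.31, 12.32, 12.33 and 12.31, with 12.29 and 12.37 on ethanol. Psmb2 and Psmb4 had changes of -0.01 and -0.06. The median of the constitutive beta genes turned from -0.05 without ethanol array 4 to 0.06 without ethanol array 2, so its sign rested on which pool was read.

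Immunoproteasome subunits replace the catalytic ones in immune cells and after interferon. Psmb9 (β1i) lay just above the background guide, at 6.24 and 6.33 on the ethanol arrays and at 6.41, 6.38, 6.43 and 6.43 on saline. Both ethanol arrays were below all saline arrays, and the change of -0.13 ± 0.06 did not pass (SE, limma adjusted p = 0.410). Psmb10 (β2i) had 7.96 and 7.91 with ethanol and 8.06, 7.73, 8.02 and 8.02 with saline. Its change was -0.02 ± 0.09 (SE, limma adjusted p = 0.949), and -0.10 without saline array 3, which was its lowest array.

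Psmb11 (β5t), the thymus-restricted subunit, had the smallest p-value of all members but was near background. It stood at 5.52 and 5.38 on the ethanol arrays and at 5.58, 5.85, 5.78 and 5.73 on the saline arrays, all below the guide of 6.20. Its ethanol mean of 5.45 was under the limit of 5.55 for dim genes and its saline mean of 5.74 above it, so it entered the test only through the saline group, and its change and p-value are given as a description. The groups did not overlap, and the change was -0.29 ± 0.08 (SE, limma adjusted p = 0.184, unadjusted 0.00310). Markers of leukocytes, where immunoproteasomes are abundant, had mean levels of 5.32 and 5.39 on the ethanol arrays and 5.28 to 5.47 on saline, with 0 of 5 measured above background. Microglia markers had mean levels of 7.77 and 7.69 with ethanol and 7.76 to 7.88 with saline, and their part in the Psmb9 values was not tested.

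Among the 19S ATPases, which form the unfolding ring, Psmc4 (Rpt3) showed the clearest separation. It stood at 10.33 and 10.29 on ethanol arrays 2 and 4 and at 10.50, 10.52, 10.50 and 10.44 on saline arrays 1, 3, 5 and 6. Every saline array was above both ethanol arrays, the ethanol mean was 88.3% of the saline level, and the change was -0.18 ± 0.06 (SE, limma adjusted p = 0.247, unadjusted 0.00935). With each array left out in turn the change ran from -0.20 to -0.16.

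The other ATPase genes had changes between -0.07 and 0.04. Psmc2 (Rpt1) was highest on one ethanol array, 9.48, and lowest on the other, 9.23, around saline values of 9.46, 9.46, 9.37 and 9.41. Psmc1 (Rpt2) overlapped throughout, at 9.87 and 9.97 with ethanol against 9.97, 9.92, 9.97 and 10.00. Psmc3, Psmc5 and Psmc6 had changes of 0.04, -0.05 and -0.03. The median of the 6 ATPase genes was -0.05, and -0.02 without ethanol array 2.

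The 11 tested non-ATPase genes, which encode the scaffold, the ubiquitin receptors and the lid, had a median change of -0.05. Of these 7 were below and 4 above 0, or 63.6% below beside 58.6% of all tested genes. Psmd12 (Rpn5), a lid subunit, was at 10.01 and 10.02 on the ethanol arrays and at 10.20, 10.21, 10.14 and 10.15 on saline. The groups did not overlap, the ethanol mean was 89.5% of the saline level, and the change was -0.16 ± 0.06 (SE, limma adjusted p = 0.293, unadjusted 0.0174). Psmd14 (Rpn11), the metalloprotease that cuts ubiquitin off the substrate, was at 11.56 and 11.39 with ethanol and at 11.62, 11.72, 11.59 and 11.59 with saline. It too did not overlap, with ethanol array 4 well below array 2, and its change was -0.15 ± 0.07 (SE, limma adjusted p = 0.399, unadjusted 0.0478). The change was -0.07 without ethanol array 4 and -0.24 without ethanol array 2.

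Psmd6 (Rpn7), another lid gene, had 10.26 and 10.45 with ethanol and 10.44, 10.56, 10.48 and 10.49 with saline. Ethanol array 4 lay inside the saline range, and the change was -0.14 ± 0.07 (SE, limma adjusted p = 0.440), or -0.24 without ethanol array 4 and -0.04 without ethanol array 2. The remaining 8 genes had changes between -0.10, for the lid gene Psmd7, and 0.06, for Psmd13. Psmd4, the ubiquitin receptor Rpn10, had 0.04. The scaffold genes Psmd1 and Psmd2 had -0.05 and -0.07.

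**Figure D3:**
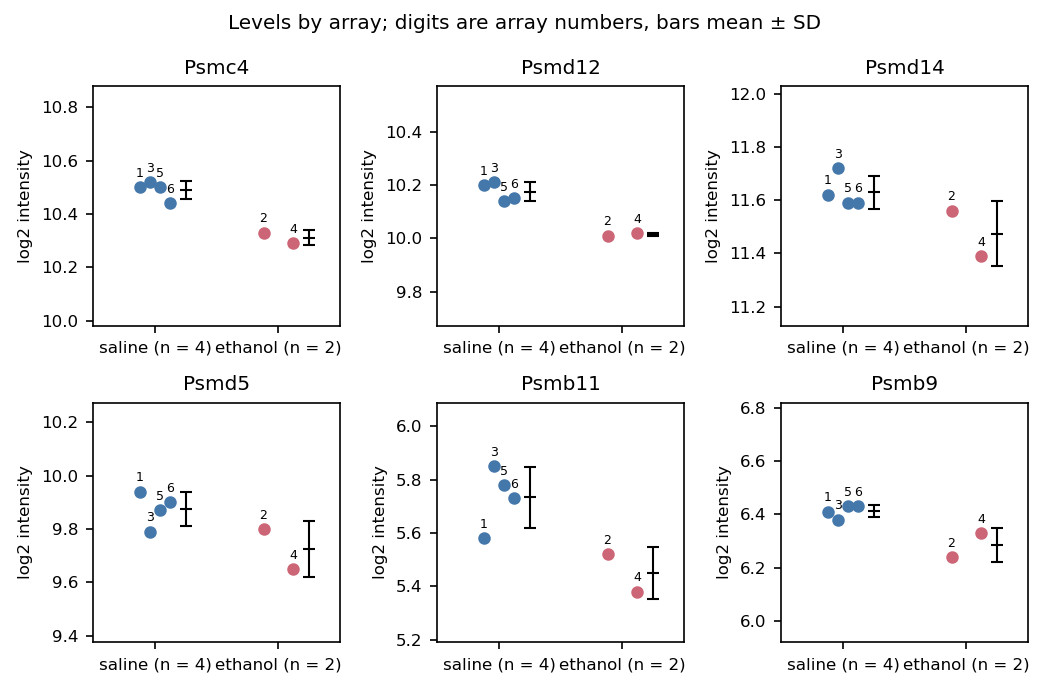
Log2 intensity on each array for 6 proteasome genes, the 5 at an unadjusted p under 0.05 and Psmb9, with saline in blue (n = 4) and ethanol in red (n = 2), array numbers beside the points and bars for mean ± SD. The ethanol points lie below all saline points for each gene but Psmd5, where ethanol array 2 at 9.80 lies above saline array 3 at 9.79.

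Chaperones of the 19S base bind its ATPases during assembly. Psmd5 (S5b) was at 9.80 and 9.65 on the ethanol arrays and at 9.94, 9.79, 9.87 and 9.90 on saline, so the groups overlapped at saline array 3. Its change was -0.15 ± 0.07 (SE, limma adjusted p = 0.405, unadjusted 0.0495), or -0.07 without ethanol array 4 and -0.23 without ethanol array 2. Psmd9 (p27) was nearly constant, at 7.60 and 7.62 with ethanol and between 7.57 and 7.62 with saline. Psmd10 (gankyrin) had 9.41 on both ethanol arrays inside a saline range of 9.30 to 9.53.

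Chaperones of the 20S core, Psmg1 to Psmg4, pair up alpha subunits early in assembly. Psmg1 (PAC1) was the single member with both ethanol arrays above every saline array, at 9.06 and 9.04 against 8.99, 8.93, 9.02 and 8.95. The margin was small, and the change was 0.08 ± 0.06 (SE, limma adjusted p = 0.633). Its partner Psmg2 (PAC2) had 9.25 and 9.35 with ethanol and 9.44, 9.24, 9.40 and 9.21 with saline. Psmg3 (PAC3) was near background, between 5.73 and 5.99.

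Psmg4 (PAC4) had the widest saline spread of all members, an SD of 0.18. It was at 7.95 and 7.61 on ethanol arrays 2 and 4 and at 7.87, 7.49, 7.75 and 7.85 on saline arrays 1, 3, 5 and 6. Its change of 0.04 ± 0.11 (SE, limma adjusted p = 0.931) became -0.05 without saline array 3 and -0.13 without ethanol array 2. The median of the 4 core chaperones was 0.01, and -0.05 without saline array 3.

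Activators open the gate of the core in place of the 19S cap. Psme1 (PA28α), of the interferon-inducible activator, was at 9.99 on both ethanol arrays and at 10.12, 9.98, 10.15 and 10.04 on saline, a change of -0.08 ± 0.06 (SE, limma adjusted p = 0.625). Psme2 (PA28β), its partner, differed by ethanol pool, with 8.84 on array 2 and 9.15 on array 4, against 9.04, 8.83, 9.01 and 9.02 on saline. Array 4 was above all saline arrays and array 2 just above the lowest. Psme2 has a near-identical copy, Psme2b, and its value may hold signal of both. Its change of 0.02 became -0.13 without ethanol array 4 and 0.17 without ethanol array 2.

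Psme3 (PA28γ), the nuclear activator, was at 11.45 and 11.48 with ethanol and at 11.56, 11.60, 11.55 and 11.52 with saline. The groups did not overlap, and the change was -0.09 ± 0.06 (SE, limma adjusted p = 0.567). Psme3ip1, whose product binds this activator, had 0.08 ± 0.06. Psme4 (PA200) had 10.53 and 10.57 with ethanol and 10.43, 10.54, 10.56 and 10.53 with saline. Psmf1 (PI31), described as an inhibitor of the core, was at 10.35 and 10.36 against 10.37, 10.28, 10.39 and 10.36. Psmc3ip, the meiotic factor, had a change of -0.03 ± 0.06.

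For 12 of the 48 tested members the ethanol pair lay wholly on one side of the saline range, as it did for 22.6% of all tested genes. Of these 11, or 22.9% of the members, were lower, against a background of 15.0%, and 1 was higher, against 7.68%. The lower ones were Psma3, Psma5, Psmb1, Psmb9, Psmb11, Psmc4, Psmd2, Psmd7, Psmd12, Psmd14 and Psme3. Psmd2 was separated only beyond the printed digits, with ethanol array 4 and saline array 6 both at 11.46. The other probeset of Psmd2 overlapped, at 11.06 on ethanol array 4 and 11.03 on saline array 3. Psmb11 is counted here although it passed the filter on dim genes only through the saline group. Over the 46 members above the background guide 10 were lower and 1 higher, or 23.9% in all, beside 22.6% of all tested genes. The 11 came from the core, the cap and an activator. Of the chaperone genes only 3 for the 19S and 4 for the 20S were tested, too few for their absence here to be read.

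**Figure D4:**
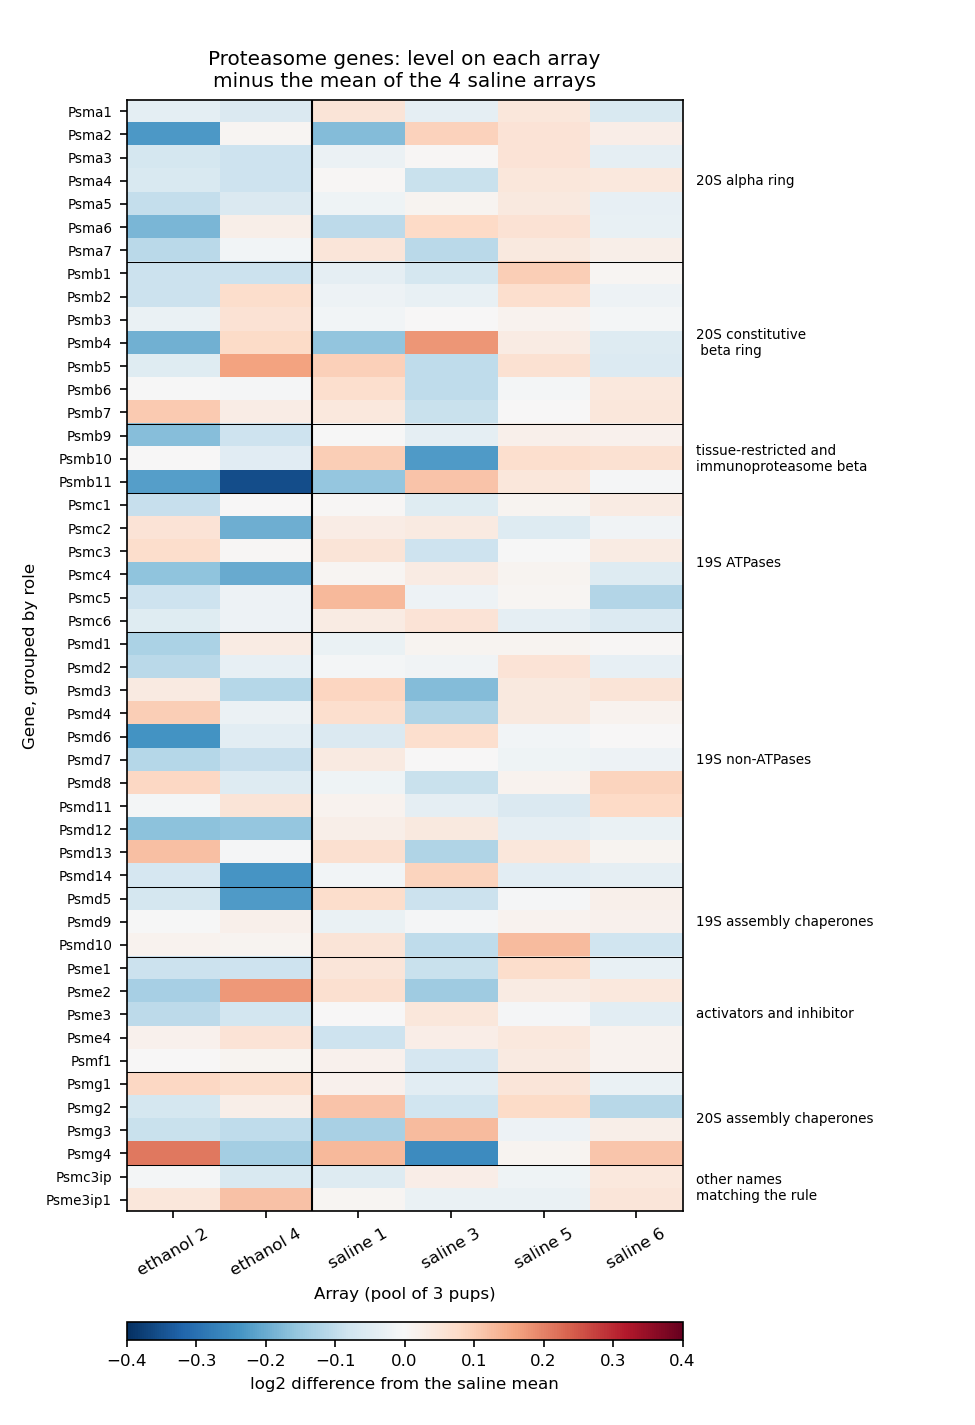
Level of each tested proteasome gene on each array minus the mean of its 4 saline arrays, in log2 units (blue lower, red higher), with genes in rows grouped by role and arrays in columns. Saline array 3 holds both blue and red rows, and ethanol arrays 2 and 4 differ for genes such as Psmg4, Psme2, Psmb4 and Psma2.

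The members differed in which pool was highest or lowest. Saline array 3 was the lowest array for 17 members and the highest for 11, or 35.4% and 22.9%, where it was lowest for 36.9% and highest for 15.2% of all tested genes. Members lowest there included Psmb10, Psmg4, Psmd3, Psmd4, Psmd13 and Psme2, and members highest there included Psma2, Psma6, Psmb4, Psmd6 and Psmd14. Ethanol array 2 was the lowest array for 14 members and ethanol array 4 for 8, or 29.2% and 16.7%, beside 21.0% and 21.4% of all genes. The median deviation of the members from their saline means was -0.07 on ethanol array 2 and -0.02 on ethanol array 4, and ran from -0.03 to 0.03 on the saline arrays. Over all tested genes it was -0.02 and -0.01 on the ethanol arrays and ran from -0.04 to 0.03 on saline. Without saline array 3, 37 members had a change below 0, 0 passed the limma test, and 5 had an unadjusted p under 0.05, with Psmb9 in place of Psmd14. In that fit 65.7% of all genes lay below 0 and 13.8% had an unadjusted p under 0.05, beside 10.4% of the members.

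**Figure D5:**
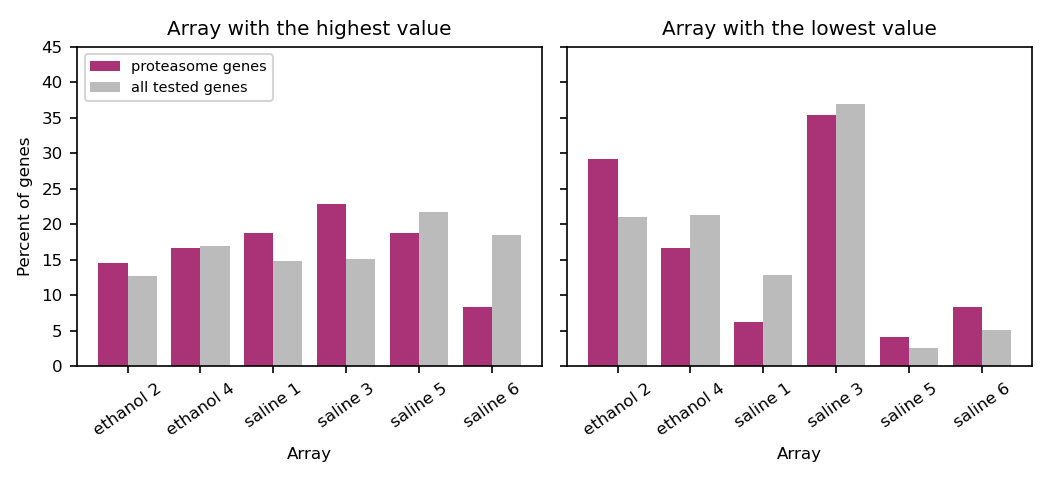
Percent of the 48 proteasome genes and of all 14954 tested genes for which each array held the highest (left) or the lowest (right) of the 6 values. Saline array 3 was lowest for 35.4% of the members and 36.9% of all genes.

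Proteins that work with the proteasome were read from 4 lists, and 0 of their 54 tested genes passed the limma test, with 5 at an unadjusted p under 0.05. Over all tested genes 0.0802% passed and 12.3% had an unadjusted p under 0.05. Of 12 tested associated and assembly factors 9 lay below 0, or 75.0% beside 58.6% of all tested genes, with a median of -0.07. An unadjusted p under 0.05 in limma was found for 2, both lower, or 16.7% beside 12.3%. Akirin2, an adaptor for nuclear import of proteasomes, was at 10.39 and 10.22 with ethanol and at 10.48, 10.54, 10.53 and 10.51 with saline, a change of -0.21 ± 0.06 (SE, limma adjusted p = 0.216). Txnl1, a thioredoxin-like protein bound to the cap, was at 9.32 and 9.23 against 9.45, 9.43, 9.48 and 9.43, a change of -0.18 ± 0.06 (SE, limma adjusted p = 0.257). Neither gene's groups overlapped. Pomp, the maturation factor of the core, had -0.10 ± 0.07.

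Of 16 tested regulators of proteasome gene transcription, 9 lay above 0 and 7 below, with a median of 0.03. The share below 0 was 43.8%, beside 58.6% of all tested genes. In limma 2 higher (Foxo3 and Stat3) and 1 lower (Mafk) had an unadjusted p under 0.05, or 18.8% beside 12.3%. Foxo3, a FoxO factor, was at 8.72 and 8.86 with ethanol and at 8.44, 8.20, 8.40 and 8.45 with saline. Its change of 0.42 ± 0.08 did not pass (SE, limma adjusted p = 0.0723). It passed with the dimmest 50% of genes left out (0.0437), with array weights (0.0450) and with a trended prior (0.0422). It did not pass in any other fit that kept both ethanol arrays, with 0.394 without a variance prior and 0.176 without saline array 5. The change was 0.35 without ethanol array 4 and 0.49 without ethanol array 2. Stat3 was at 9.53 and 9.58 against 9.38, 9.27, 9.40 and 9.39, a change of 0.20 ± 0.06 (SE, limma adjusted p = 0.241). Nfe2l1, which drives the recovery of proteasome genes, had -0.07 ± 0.06, with 10.14 and 10.26 on ethanol and 10.21 to 10.30 on saline, so the groups overlapped.

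The lists of ubiquitin handling (14 tested) and of class I antigen processing (12 tested) had medians of -0.04 and 0.01. In limma 0 of their genes were called or at an unadjusted p under 0.05, beside 0.0802% and 12.3% of all tested genes. These 2 lists were led by the ubiquilin gene Ubqln2 (-0.11 ± 0.06) with Ufd1 (-0.12 ± 0.07), and by Nlrc5 (-0.13 ± 0.08) with Pdia3 (-0.09 ± 0.06). The peptide transporter gene Tap1, which shares a promoter region with Psmb9, was near background and had 0.08 ± 0.07.

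Promoter sequence was read for 42 of the 50 genes from RefSeq (build GRCm38.p6), as the 250 bases before each start site, on 46 promoters. The promoters of Psma8, Psmb1, Psmb2, Psmb7, Psmc3, Psmd3, Psmd7 and Psmg2 were not analysed here. The antioxidant response element, through which the Nfe2l1 protein acts, was searched as TGACNNNGC on both strands. It matched 5 member promoters, 10.9%, beside 10.2% of all 32851 promoters. The member share was near that of all promoters, and whether these genes share that route was not tested. The matching stretches are shown with the match in capitals, on the gene's own strand and 5′ to 3′.
Psmb5, chr14:54618010-54618066, minus strand: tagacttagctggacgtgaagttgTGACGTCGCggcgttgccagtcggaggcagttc
Psmb6, chr11:70525324-70525356, plus strand: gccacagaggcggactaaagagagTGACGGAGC
Psmc6, chr14:45329574-45329629, plus strand: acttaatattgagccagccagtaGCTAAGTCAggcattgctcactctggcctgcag
Psmd9, chr5:123228135-123228189, plus strand: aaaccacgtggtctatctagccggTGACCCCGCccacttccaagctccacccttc
Psmd12, chr11:107479278-107479313, plus strand: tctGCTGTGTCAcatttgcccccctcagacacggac

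The match in Psmb6 begins 9 bases before the start site, those in Psmd9 and Psmb5 31 and 47 bases before it, and those in Psmc6 and Psmd12 227 and 247. In Psmc6 and Psmd12 the element lies on the opposite strand, so its reverse complement is what the capitals show. The 5 genes had log2 changes of 0.06 for Psmb5, -0.0035 for Psmb6, -0.03 for Psmc6, 0.01 for Psmd9 and -0.16 for Psmd12, a median of -0.0035, beside -0.06 for the 36 tested members whose promoters were read and had no match. The CCAAT box, bound by NF-Y and searched on both strands, matched 16 member promoters (34.8%, beside 33.8% of all promoters), whose 16 tested genes had a median of -0.07, beside -0.03 for the 25 without a match. The core of the interferon-stimulated response element, on both strands, matched 3 (6.52%, beside 2.98%), those of Psmb3, Psmd4 and Psmd9. A match is a description of the letters and not a measured site.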

How the data were processed

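RNA of 6 pools was labelled with biotin and read on Affymetrix whole-transcript arrays, 200 ng each, per the labels' protocols. The deposited values, 1 for each probeset on an array, were read as log2 because they span 4.10 to 14.9. Neither the labels nor the table name a log base. The submitters' processing notes name Partek 6.6, and the normalization is not given in the sources used here. The members, lists and tests were chosen with earlier results of these data known. Of 35556 probesets, 21789 had 1 gene symbol, 1621 several and 12146 none here, and 21698 matched a current record by gene identifier. They named 19939 genes. The brightest probeset stood for a gene, and the dimmest 25% (4985 genes, to 5.55) were left out.

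Each of 14954 genes was fitted on treatment with limma 3.58.1 in R 4.3.3 (lmFit, eBayes, two-sided, Benjamini-Hochberg, threshold 0.05), with 4 residual and 8.10 prior degrees of freedom. The fit was run on simulated data with the same noise for every gene and with changes larger than that of any member. That run checks the code and not how the fit behaves on these arrays. The labels do not say which pools hold littermates, so the matching by litter is not in the fit. Named members were the 3 of smallest p in each role group and every tested immunoproteasome, activator and core chaperone gene, 29 in all, and of each partner list the 2 of smallest p. Other genes named (Pomp, Nfe2l1, Mafk, Tap1, Gh, Cga, Alas2, Slc4a1) and other members were chosen after their values were seen. Psme3ip1 was set apart from the activators. Alternatives were filters, probeset rules, scalings, weights, priors and leaving out each array, and leaving out near-background or misnamed members was added after seeing the data. Listed genes with no match are not analysed here.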

Additional observations from a re-analysis of the deposited data

Results flagged for a closer look

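In the saline group of 4 arrays, 5 of the 48 tested members had 1 array far from the other 3, by the ratio of its gap to the group's whole range (Dixon's test). Chance alone flags about 1 in 20 groups. The test was run on the members only, so their count cannot be set beside a share of all tested genes. Saline array 3 was the lowest array for 36.9% of all tested genes. Saline array 3 was the low one for Psmb10 (ratio 0.889, 7.73 against 8.02 to 8.06), Psme2 (0.842, 8.83 against 9.01 to 9.04) and Psma7 (0.838, 9.32 against 9.45 to 9.47). Saline array 5 was the high one for Psmb2 (0.903, 11.51 against 11.41 to 11.42). Saline array 1 was the low one for Psmd1 (0.868, 11.47 against 11.50 to 11.51).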

How the results depend on the processing

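The count of members that passed the limma test was 0 under all 17 alternatives run. Leaving out near-background or misnamed members only drops genes from the main fit, so it could add no call. The fit without a variance prior called 0 of all tested genes and so no member either. Where both ethanol arrays were kept, the smallest member adjusted p in limma lay between 0.104 (without saline array 1) and 0.384 (without saline array 5). Members at an unadjusted p under 0.05 numbered 4 to 7 with all arrays and 3 to 5 with 1 array left out, beside 10.3% to 13.2% and 7.83% to 13.8% of all genes. Without ethanol array 4 they were Psma2, Psmb9 and Psmd6, and none of the 5 named in the report. The median change over all tested members ran from -0.07 to -0.02. All genes called went from 12 to 52 with the dimmest 50% left out, 23 after quantile normalization, 56 with array weights, 48 with a trended robust prior and 0 without a variance prior (1535 at an unadjusted p under 0.05), and to 4 to 16 with 1 array left out. The cause was not tested. Foxo3 was the 1 listed regulator called, under the 50% filter, array weights and the trended prior. The median of the tissue-restricted and immunoproteasome genes went from -0.13 to -0.08 after quantile normalization, and to between -0.17 and -0.08 with 1 array left out. In the same way medians ran from -0.05 to 0.06 for constitutive beta genes, -0.07 to -0.02 for ATPases, -0.07 to -0.04 for non-ATPases, -0.09 to 0.02 for activators and -0.05 to 0.05 for core chaperones. Signs of uncalled changes turned for 12 of the 37 named genes. Psmc3ip had 0.01 after quantile normalization. With array weights Psmd10 had -0.0023, Psme2 -0.01, Psmf1 -0.01 and Psmg4 -0.02. With 1 array left out, changes ran from -0.23 to 0.01 for Psma2, -0.09 to 0.0021 for Psmc1, -0.07 to 0.02 for Psmg2, -0.13 to 0.21 for Psmg4, -0.05 to 0.16 for Psmb5, -0.10 to 0.01 for Psmb10, -0.19 to 0.06 for Psmc2, -0.0001 to 0.02 for Psmd9, -0.13 to 0.17 for Psme2, -0.02 to 0.05 for Psmd10 and -0.02 to 0.02 for Psmf1. A fit with 1 ethanol array assumes that it varies like the saline arrays. No paired analysis was possible because the labels do not say which pools hold littermates and the groups share no number, so the fit leaves out the matching by litter. Signal near background limits Psmb11, Psmg3 and Psmb9.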

Other observations

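A probeset annotated to both Psme2 and its copy Psme2b was outside the comparison. It stood at 7.30 and 7.35 on ethanol arrays 2 and 4 and at 7.43, 7.10, 7.17 and 7.29 on saline arrays 1, 3, 5 and 6, so the groups overlapped.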
